A study of Arabidopsis thaliana with 25 samples.

Results

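With 21 named genes set aside, 33 Arabidopsis genes are described here. Each was at least 2-fold higher after oxygen deprivation in roots and in shoots of all 3 genotypes studied. The 33 were chosen by the measured hypoxia effects themselves. A gene entered when a probe set carrying that gene alone had a group mean at least 1 log2 unit higher in hypoxia than in normoxia in each of 6 genotype-organ pairs. Of 13350 genes with a single-gene probe set, 52 met that condition, and 19 of them were among the 21 named genes and were removed. Over all 22746 probe sets, with or without a gene assigned, 105 passed the threshold in all 6 pairs. So the 33 genes and those removed do not cover every probe set induced in this way. The label, a core hypoxia-induced set in both organs, is therefore a description of how the genes were picked, and their induction is given below as a description, with no test of it used as support.

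The study asked how MPK6, a mitogen-activated protein kinase, takes part in the response of seedlings to oxygen deprivation. Affymetrix ATH1 arrays measured RNA of roots and shoots dissected from Col-0 seedlings 10 days old, grown with sucrose in long days, with whole seedlings treated before dissection. The hypoxic groups were mpk6 (a T-DNA insertion line of MPK6), MPK6ox (MPK6 driven by the 35S promoter, which is active in most tissues) and WT, kept under 99.998% argon in an airtight chamber. The normoxic groups were the same mpk6, MPK6ox and WT genotypes kept in an open box. The treatment protocol gives 2 h of treatment, whereas the sample source names give 9 h of hypoxia, so the duration is uncertain. There were 25 arrays in 12 groups, of which 11 had 2 arrays and hypoxic MPK6ox roots had 3. The titles call the replicates biological, and no label says which separate cultures or plates they came from, so p-values measure the spread between these samples. MPK6 transcript levels were not analysed here, so every comparison of mpk6 and MPK6ox with WT rests on genotype labels that had no such check.

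Plants sense low oxygen largely through group VII ethylene response factors. In air these transcription factors are oxidised at the N-terminus by plant cysteine oxidases and degraded, and when oxygen falls they persist and switch on genes of fermentation, sugar use and oxygen sensing. Several of the genes induced most widely across cell types in low oxygen encode proteins of unknown function.

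Most of the 33 genes carry no name in the gene table used here. Of the 33, 4 had a symbol. TIL encodes temperature-induced lipocalin, a membrane-associated lipid-binding protein linked to heat and oxidative stress. GID1A encodes a receptor of the hormone gibberellin. FHL encodes a relative of FHY1 that helps phytochrome A, a light receptor, enter the nucleus. GAT1_2.1 encodes a class I glutamine amidotransferase-like protein. The other 29 are given by locus tag, with no role. On a list of low-oxygen genes assembled from general knowledge, 27 of 52 members were measured, and 8 of these belong to the 33, namely AT1G26270, AT1G74940, AT3G29970, AT4G27450, AT5G26200, AT5G42200, AT5G47060 and TIL. Another 18 were among the genes set aside by name. None of the 33 was on the lists for oxygen sensing, fermentation and sugar use, ethylene, mitochondrial dysfunction, heat shock or energy starvation. Only 1 of 16 oxygen-sensing genes and 4 of 20 fermentation and sugar genes were measured. Of these, AT3G10040, PDC2 and AT4G17260 were set aside by name, so their absence follows from the selection.

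The arrays matched their organ labels. The mean of 6 measured photosynthesis genes lay between 13.1 and 13.3 log2 units in every shoot group and between 6.85 and 9.33 in the root groups. In roots the group mean in hypoxia lay above that in normoxia for each genotype, and the arrays of the treatments overlapped in mpk6. It was 8.70 in hypoxic against 7.92 in normoxic mpk6 roots, 9.33 against 6.85 in MPK6ox roots, and 9.20 against 7.41 in WT roots. The mean of 3 measured root markers was 9.71 to 9.94 in hypoxic roots and 11.3 to 11.6 in normoxic roots. Of these, the root hair expansins EXPA7 and EXPA18 were called lower in hypoxic roots of all 3 genotypes, and PYK10, a root beta-glucosidase, was not called in any (-0.24, -0.28 and -0.44 in mpk6, MPK6ox and WT). Replicate arrays correlated at r = 0.982 to 0.992 across probe sets. In bulk tissue, fewer cells of a type and less RNA per cell cannot be told apart.

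The 33 genes were induced more strongly in roots than in shoots in most cases. Their median hypoxia effect was 2.37 log2 units in mpk6 roots, 2.25 in MPK6ox roots and 2.18 in WT roots. In shoots it was 1.62 in mpk6, 1.78 in MPK6ox and 1.68 in WT. Over all 22746 probe sets the medians lay between -0.02 and 0.02. Averaged over the genotypes, 28 of the 33 genes had the larger effect in roots and 5 in shoots. The effect was at least 4-fold in roots for 22 genes and in shoots for 8.

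**Figure D1:**
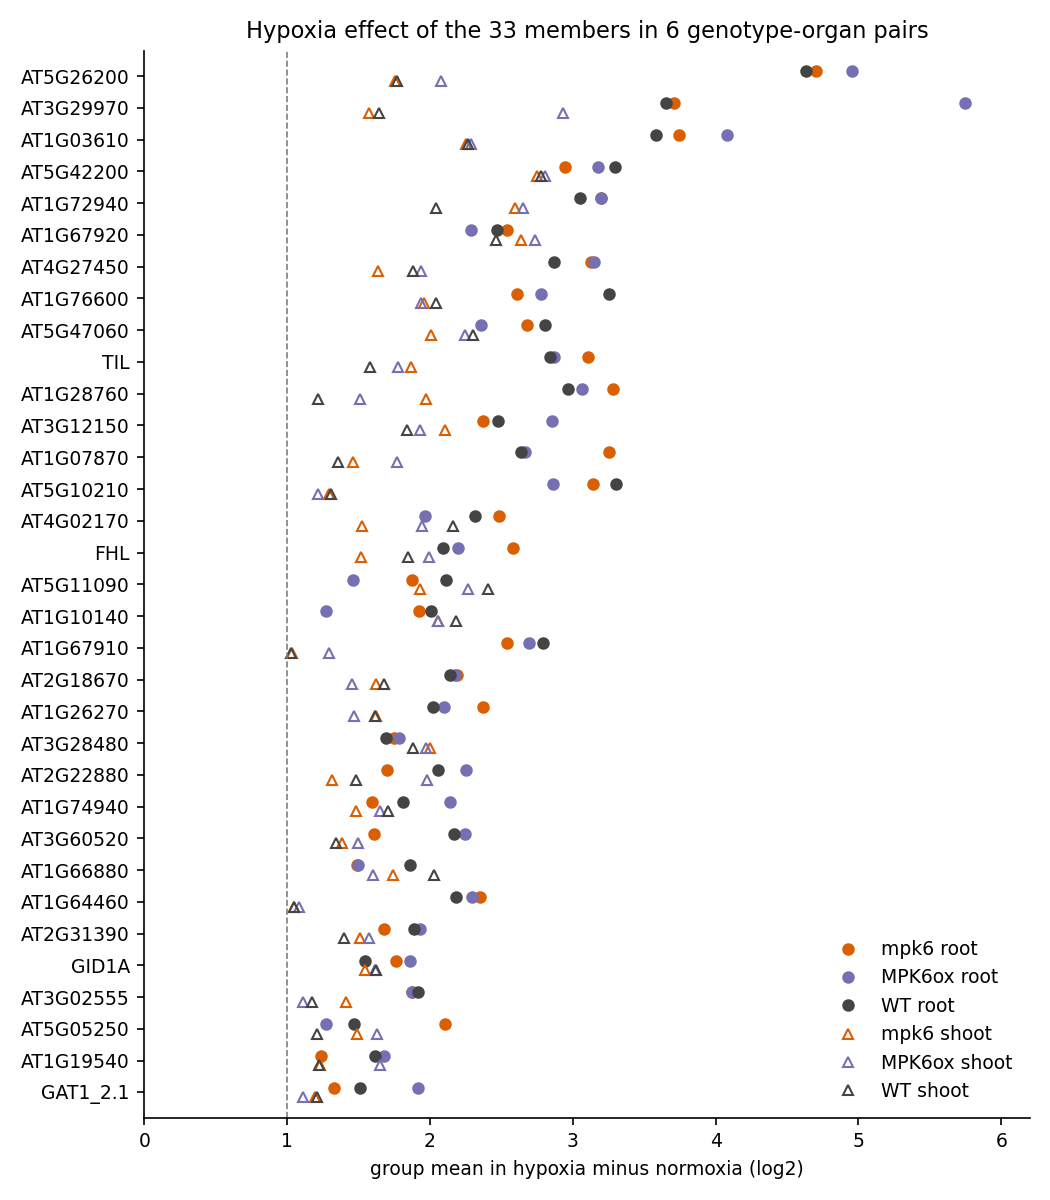
Hypoxia effect of each of the 33 genes, as group mean in hypoxia minus normoxia in log2 units on the horizontal axis, with filled circles for roots and open triangles for shoots of mpk6, MPK6ox and WT. The dashed line is the selection threshold of 1, and for 28 genes the mean of the root effects exceeds the mean of the shoot effects.

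Hypoxic and normoxic arrays separated for nearly all of these genes. In roots, all 7 hypoxic arrays lay above all 6 normoxic arrays for 33 genes. In shoots this held for 32 genes. The share of all probe sets was counted for both organs together only. Separation in both organs was found for 32 of the 33 genes and for 1.22% of all probe sets, a contrast that the selection itself used. The exception was GAT1_2.1, whose lowest hypoxic shoot array (9.21, WT) lay below its highest normoxic shoot array (9.35, MPK6ox). Within each genotype its hypoxic shoot arrays all lay above its normoxic shoot arrays. Meeting the selection threshold did not mean passing a test in every pair. By limma at an adjusted p under 0.05, AT4G02170 and AT3G60520 passed in 5 of the 6 pairs, AT5G10210 and AT1G64460 in 3, and GAT1_2.1 in 1. The other 28 passed in all 6, as did 0.453% of all probe sets, and since the same effects chose the genes, nothing is read from that share.

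The weakest of the 33 lie next to genes that just missed. The lowest of the 6 effects was 1.03 for AT1G67910, 1.05 for AT1G64460, 1.11 for GAT1_2.1 and for AT3G02555, and 1.21 for AT5G05250. Just below the threshold, PUB19 and PUB22, which encode U-box ubiquitin ligases, had lowest effects of 0.99 each, AT5G35940 and AT4G33980 of 0.98, and AT5G07580 of 0.95. At the other end, 5 genes reached 2 log2 units or more in all 6 pairs.

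TIL had the largest mean hypoxia effect of the 4 named genes in roots, and FHL (3.45-fold) a slightly larger one than TIL in shoots. In roots the level of TIL was 12.66, 12.94 and 13.09 log2 units (lowest, median and highest array) in hypoxia against 9.72, 10.00 and 10.10 in normoxia, 7.66-fold on average. In shoots it was 11.43, 11.99 and 12.08 in hypoxia against 9.95, 10.18 and 10.36 in normoxia, 3.34-fold. The arrays of the treatments did not overlap in either organ, and the root arrays of hypoxia all exceeded the shoot arrays of hypoxia.

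GID1A had a narrow range of effects, between 1.55 and 1.86 log2 units. Its root arrays ran 10.76, 11.00 and 11.32 in hypoxia against 8.85, 9.18 and 9.66 in normoxia. Its shoot arrays ran 10.36, 10.64 and 10.90 in hypoxia against 8.53, 9.16 and 9.51 in normoxia. The root effect minus the shoot effect was 0.13 ± 0.28 (SE), with a 95% interval of -0.47 to 0.73.

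FHL rose to 7.93, 8.77 and 9.05 in hypoxic roots, against 5.92, 6.41 and 6.87 in normoxic roots. In shoots it was 7.90, 8.61 and 8.92 in hypoxia against 6.51, 6.85 and 6.94 in normoxia. Here too the treatments separated in both organs.

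GAT1_2.1 was the least uniform named gene, and in every group its replicate 2 lay above its replicate 1. Its root arrays ran 11.42, 12.43 and 13.36 in hypoxia against 10.41, 10.78 and 11.02 in normoxia, and its shoot arrays 9.21, 9.83 and 10.62 against 7.98, 8.77 and 9.35. A second probe set for this gene did not share the induction. It had effects of 0.35 to 0.51 in roots and -0.01 to 0.08 in shoots. That probe set averaged 5.15 log2 units over the 25 arrays. The result for GAT1_2.1 therefore rests on 1 of its 2 probe sets, whereas the other 32 genes had a single probe set each.

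Among the unnamed low-oxygen genes, AT5G42200 had the largest mean effect in shoots. In roots it was at 11.62, 12.14 and 12.50 in hypoxia against 8.84, 8.97 and 9.17 in normoxia, 8.82-fold. In shoots it was at 11.54, 11.64 and 11.83 in hypoxia against 8.65, 8.90 and 9.00 in normoxia, 6.86-fold. Its 6 effects spanned 2.75 to 3.30 across organs and genotypes. The root effect minus the shoot effect was 0.36, with a 95% interval of 0.07 to 0.66 (limma adjusted p = 0.143), and it was called with quantile normalization (0.49, adjusted p = 0.0318). AT4G27450 rose 8.27-fold in roots and 3.52-fold in shoots. AT5G47060 rose 6.12-fold in roots and 4.55-fold in shoots. AT1G26270 and AT1G74940 had smaller effects, 4.47-fold and 3.6-fold in roots and 2.97-fold and 3.06-fold in shoots.

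The root and shoot effects were then compared directly. The selection set a floor under each effect but no condition on their difference, although that difference is made of the same 6 effects. In a limma fit of all 25 arrays, the hypoxia effect averaged over genotypes differed between roots and shoots for 14 of the 33 genes at an adjusted p under 0.05, against 7.54% of all probe sets. All 14 were larger in roots, a direction called for 3.23% of all probe sets. The 33 were picked for large effects in both organs, unlike most probe sets, so no enrichment is read from these shares. At an unadjusted p under 0.05, 19 genes differed, with no share of all probe sets at that threshold to set beside it. Over the 33 genes the median difference was 0.58 log2 units, and over all probe sets it was 0.01. Effects of at least 1 log2 unit were also more frequent in roots over all 22746 probe sets. They were found for 370, 577 and 503 probe sets in mpk6, MPK6ox and WT roots, and for 229, 253 and 257 in shoots. Of the 18 measured low-oxygen genes set aside by name, 10 were called with the larger effect in roots. AT5G66985 and AT4G39675 were called with the larger effect in shoots, at root minus shoot differences of -1.99 and -1.93 (limma adjusted p = 6.93e-06 and 0.000141), and 6 were not called.

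**Figure D2:**
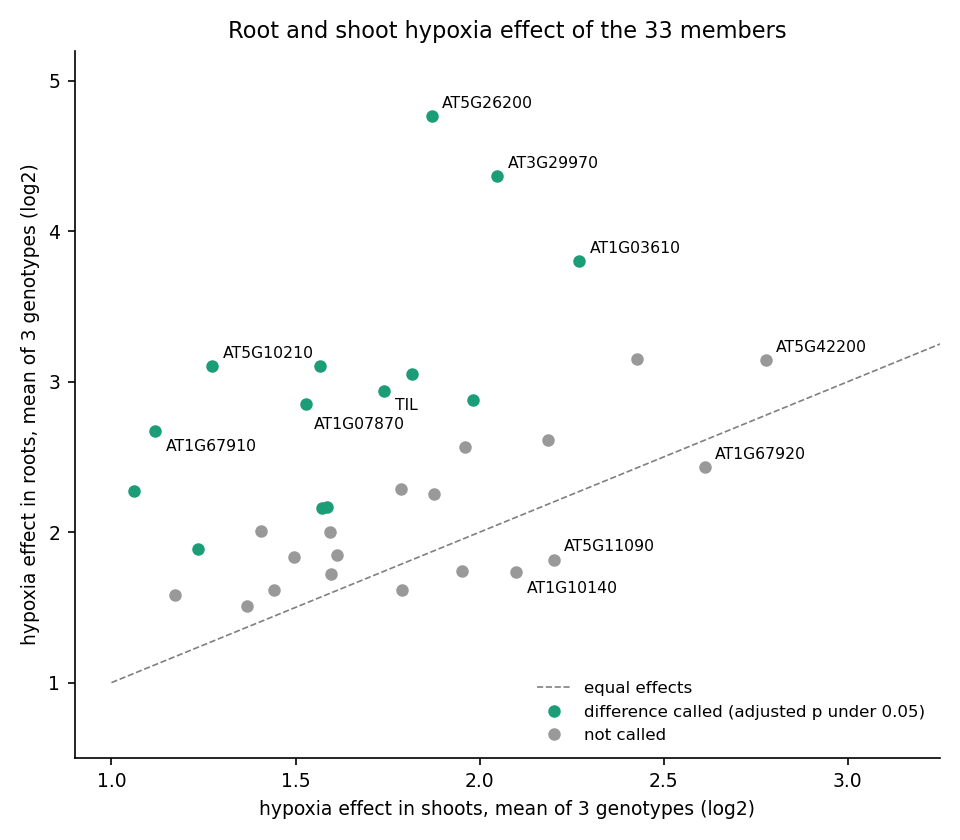
Hypoxia effect in roots (vertical) against shoots (horizontal) for each of the 33 genes, both as the mean of the 3 genotypes in log2 units, with the dashed line marking equal effects. The 14 green points are called different between organs and all lie above the line, with AT5G26200 and AT3G29970 farthest from it.

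AT5G26200 had the widest gap between organs. In roots its level was 10.24, 10.93 and 11.37 in hypoxia against 5.14, 6.13 and 6.91 in normoxia, a 27.2-fold mean rise. In shoots it was 10.79, 11.28 and 11.61 in hypoxia against 9.10, 9.43 and 9.52 in normoxia, 3.65-fold. The root effect exceeded the shoot effect by 2.90 ± 0.32 log2 units (SE, adjusted p = 2.11e-05). The hypoxic arrays of the organs overlapped in level, while the normoxic arrays did not.

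AT3G29970 followed, with a 20.7-fold rise in roots and a 4.14-fold rise in shoots as means over the genotypes, which differed. In roots the rise was 13.1-fold in mpk6, 53.7-fold in MPK6ox and 12.6-fold in WT. In shoots it was 2.97-fold, 7.62-fold and 3.12-fold in the same order. Its difference between organs was 2.32 ± 0.23 (adjusted p = 8.75e-06). AT1G67910 rose 6.39-fold in roots and 2.17-fold in shoots, a difference of 1.56 ± 0.13 (adjusted p = 1.39e-06). AT1G03610 and AT1G28760 showed gaps of 1.53 and 1.54, with rises of 14-fold and 8.61-fold in roots against 4.83-fold and 2.96-fold in shoots. The remaining clear cases were AT1G07870 (1.32), AT4G27450 (1.23), AT1G64460 (1.22) and TIL (1.2), followed by AT3G02555 (0.65), AT1G26270 (0.59) and AT2G18670 (0.58).

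The calls of AT5G10210 (1.83, adjusted p = 0.0262) and AT1G76600 (0.90, adjusted p = 0.0390) depended on single arrays. The call of AT5G10210 was lost when any of 9 arrays was left out, at adjusted p = 0.0503 to 0.0598, with differences of 1.60 to 1.79. That of AT1G76600 was lost for any of 15 arrays, at adjusted p = 0.0507 to 0.0839, with differences of 0.75 to 0.93. In AT5G10210 the hypoxic root arrays ran from 7.58 to 9.95, the widest range of the 33 genes in that condition. Replicate 2 of this gene lay above replicate 1 in every group, as it also did for GAT1_2.1 and AT1G10140.

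Photosynthesis transcripts also differed between hypoxic and normoxic roots in some genotypes. Of 6 measured genes (of 33 listed), 6 were called higher in MPK6ox roots, 4 in WT roots and 0 in mpk6 roots, and the treatment effect averaged over genotypes was called larger in roots than in shoots for all 6. They were LHCB4.1, an antenna protein, PSAN and PSBW, photosystem subunits, and RCA, PRK and SBPASE, enzymes of carbon fixation. EXPA7 and EXPA18 fell by 1.85 and 2.49 log2 units in hypoxic WT roots. When the photosynthesis mean of the root arrays was added to the fit as a covariate, 12 of the 33 genes were called. The share of all probe sets called in that fit is not given here, so the count is not set against a background. AT5G10210 (0.75, adjusted p = 0.689), AT1G76600 (0.39, adjusted p = 0.707) and AT1G26270 (0.48, adjusted p = 0.0925) lost their calls, and FHL (1.28, adjusted p = 0.0297) gained one. The gap of AT5G26200 was 3.45 with the covariate, and that of AT3G29970 was 2.36.

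For the other 19 genes no difference between organs was called. Their root minus shoot differences ran from -0.38 for AT5G11090 to 0.72 for AT1G72940, with a median of 0.34. The 95% interval lay within 1 log2 unit of 0 for 14 of them, so a gap above 2-fold was outside it. For the other 5 the interval reached past 1, as for GAT1_2.1 (-0.53 to 1.36). The genes with the larger mean effect in shoots were AT5G11090, AT1G10140, AT3G28480, AT1G67920 and AT1G66880, and none of these passed the test.

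Without oxygen deprivation the same genes had no common organ pattern. In normoxia, 22 of 33 differed in level between roots and shoots, against 56.9% of all probe sets, so the share is near the background. Of the 22, 13 were higher in roots and 9 lower. Those highest in roots were AT1G67920 (2.29 ± 0.21 log2 units, SE), AT1G07870 (2.10 ± 0.12), GAT1_2.1 (2.05 ± 0.32) and AT2G31390 (1.99 ± 0.10). Those lowest in roots were AT5G26200 (-3.25 ± 0.23), AT1G67910 (-2.64 ± 0.09) and AT1G72940 (-2.04 ± 0.19). All 7 had adjusted p-values at or below 2.63e-05.

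**Figure D3:**
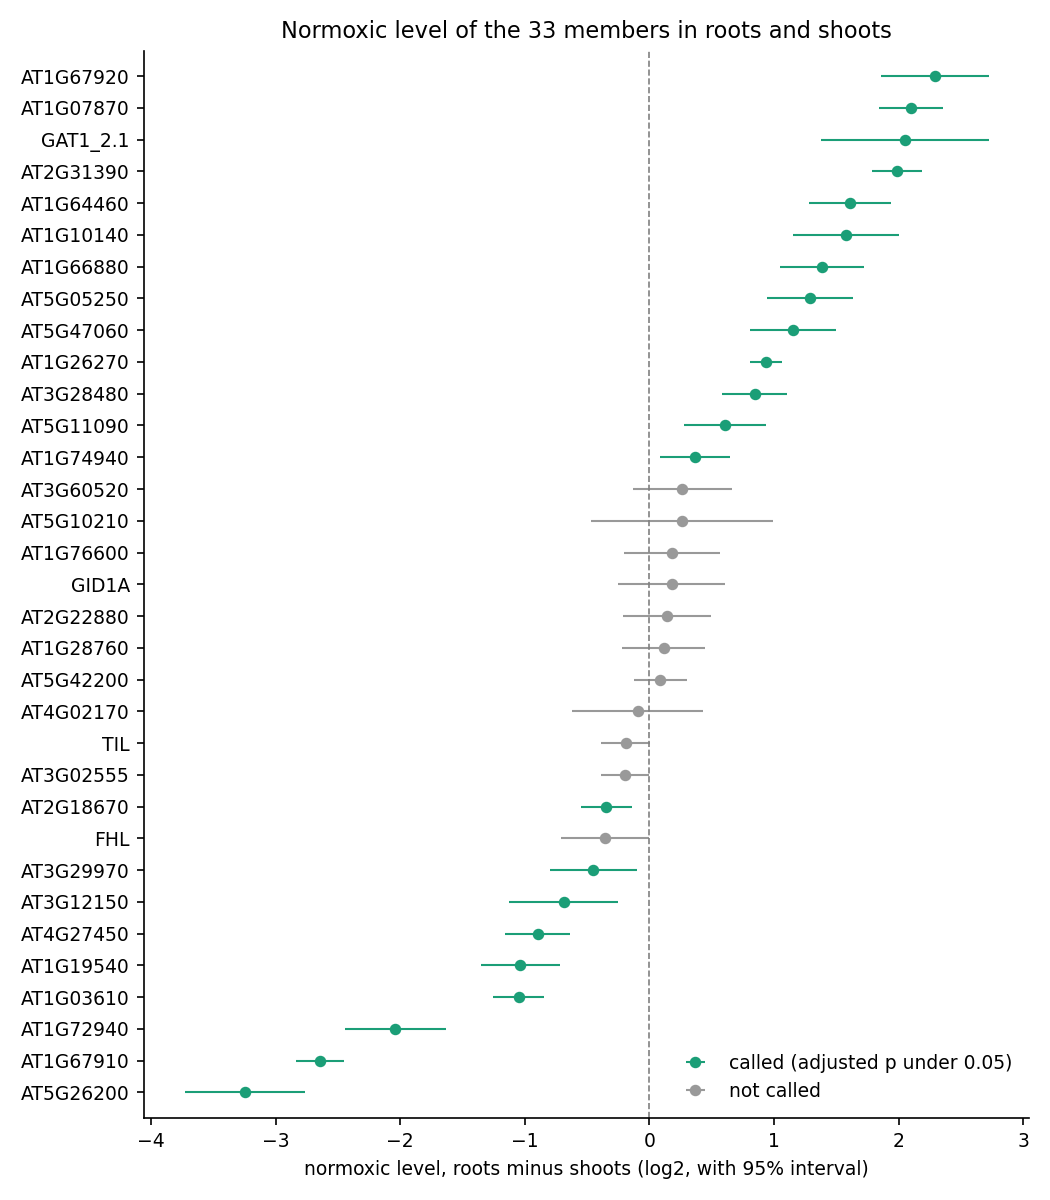
Normoxic level in roots minus shoots for each of the 33 genes, in log2 units with 95% intervals from the limma fit, averaged over genotypes. Of the 22 green genes, 13 lie to the right of 0 (higher in roots) and 9 to the left.

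A larger root effect did not always go with a low normoxic level in roots. Of the 14 genes with the larger root effect, 6 were lower in normoxic roots than in normoxic shoots, 3 were higher and 5 were not called. These 6 were among the 9 of the 33 genes called lower in normoxic roots, and the 3 among the 13 called higher. The normoxic arrays enter both measures, so the measures are not independent, and a link between them was not tested. AT1G07870 belonged to the 3 that were higher. In roots it was at 11.95, 12.33 and 12.72 in hypoxia against 9.15, 9.43 and 9.70 in normoxia. In shoots it was at 8.42, 8.92 and 9.12 in hypoxia against 7.12, 7.34 and 7.60 in normoxia. AT1G64460 had the same order, with 10.37, 11.07 and 11.53 in hypoxic and 8.36, 8.73 and 8.90 in normoxic roots, against 7.90, 8.11 and 8.32 in hypoxic and 6.91, 7.04 and 7.15 in normoxic shoots. Both were thus higher in roots in either condition and also rose more there.

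AT1G67910 and AT1G67920 are next to each other on chromosome 1. They were the only adjacent pair among the 33. Their organ patterns were opposite. AT1G67910 was at 9.07, 9.17 and 9.36 in hypoxic and 6.35, 6.54 and 6.67 in normoxic roots, against 10.09, 10.31 and 10.48 in hypoxic and 8.91, 9.19 and 9.41 in normoxic shoots. AT1G67920 was at 10.17, 10.66 and 10.96 in hypoxic and 7.98, 8.13 and 8.40 in normoxic roots, against 7.80, 8.53 and 9.23 in hypoxic and 5.30, 5.99 and 6.17 in normoxic shoots. In either condition AT1G67910 was thus higher in shoots than in roots, and AT1G67920 higher in roots than in shoots. The effect of AT1G67910 was larger in roots, whereas for AT1G67920 the root minus shoot difference was -0.18, with a 95% interval of -0.78 to 0.43.

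**Figure D4:**
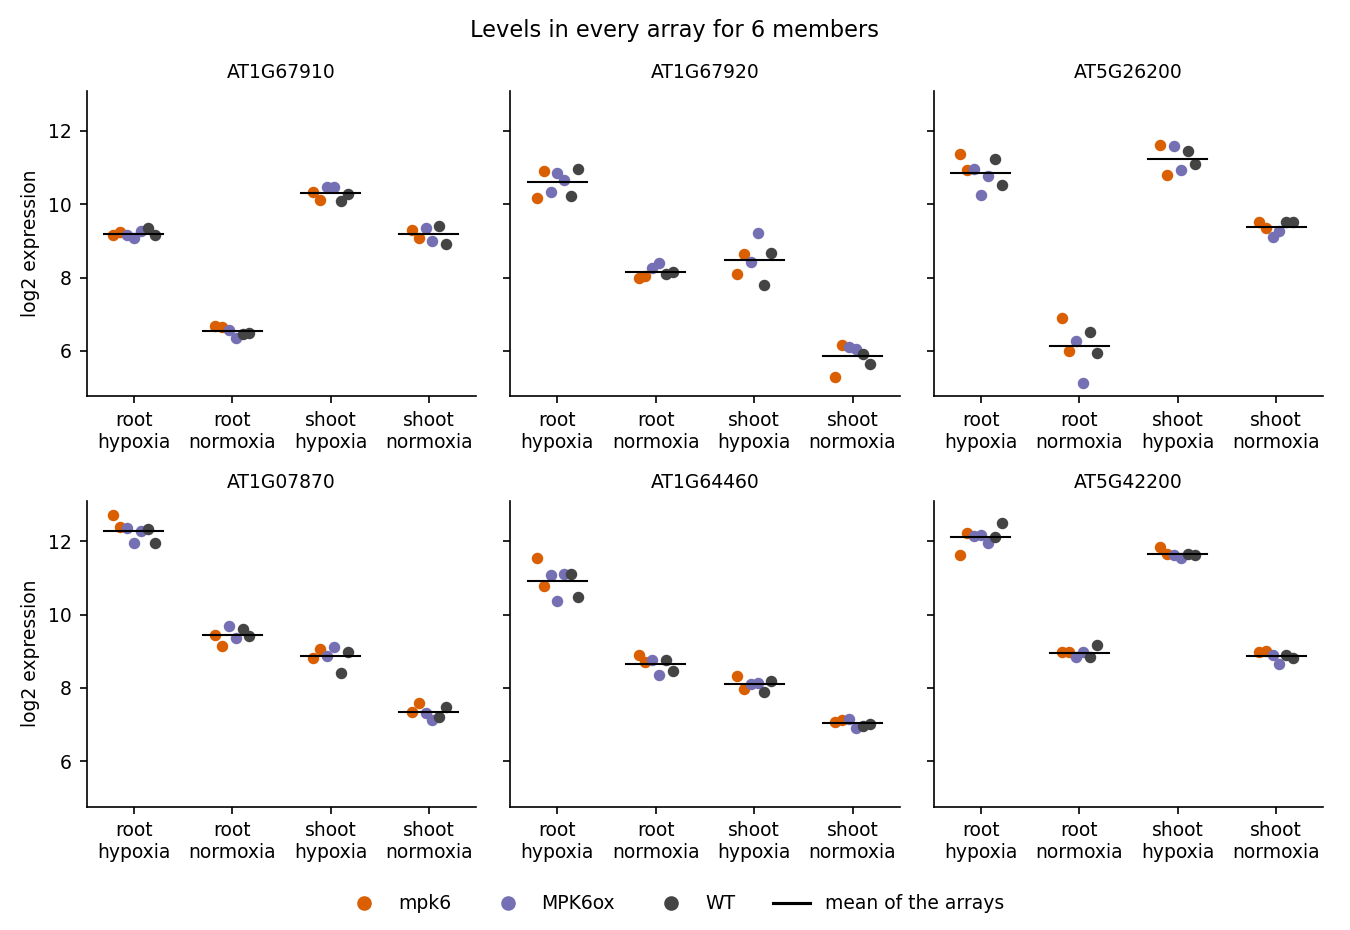
Log2 expression of 6 genes in every array, by organ and treatment, with 1 point per array coloured by genotype and a line at the mean. AT1G67910 and AT5G26200 have their lowest values in normoxic roots, AT1G67920, AT1G07870 and AT1G64460 have theirs in normoxic shoots, and the arrays of AT5G42200 overlap between organs within each treatment.

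Most measured neighbours on the chromosome did not pass the selection threshold. Of the 33 genes, 24 had a measured neighbour, which made 31 gene-neighbour pairs. In 3 of them the neighbour also passed the threshold, which were both directions of the adjacent pair above and AT1G19530, set aside by name, beside AT1G19540. The effects of AT1G19530 were 2.75 to 3.73, against 1.23 to 1.68 for AT1G19540. PSB27, a photosystem II assembly factor next to AT1G03610, had effects of 1.12, 2.82 and 2.55 in mpk6, MPK6ox and WT roots and between -0.01 and 0.18 in shoots. PORB, a protochlorophyllide oxidoreductase next to AT4G27450, had effects of 0.58, 1.32 and 0.67 in mpk6, MPK6ox and WT roots and between -0.65 and -0.37 in shoots. By chromosome, 14 of the 33 genes (42.4%) lay on chromosome 1, which holds 25.7% of the genes measured. The median gene length was 1604 bases for the 33 and 2105 bases for all genes matched to the annotation.

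Few differences between the MPK6 lines and WT were detected for these genes. The difference in hypoxia effect from WT was called for 0 of the 33 genes in mpk6 roots, mpk6 shoots, MPK6ox roots and MPK6ox shoots, against 0% of all probe sets in each. The selection asked for a rise of at least 1 log2 unit in every genotype and organ. A gene whose induction was lost in either line could therefore not be among the 33, and these counts cannot show whether such genes exist. At an unadjusted p under 0.05 in the same limma fit there were 1, 0, 2 and 1 genes. The median difference over the 33 genes was 0.05, -0.01, 0.06 and 0.05 log2 units in the same order. In normoxia 0 of the 33 differed from WT in mpk6 roots, mpk6 shoots, MPK6ox roots or MPK6ox shoots by limma, where 0.0703%, 0.00879%, 0.33% and 0.888% of all probe sets did. Unadjusted, these were 1, 0, 0 and 3 genes. No share of all probe sets is given without adjustment, so nothing is read from the unadjusted counts.

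In hypoxia the level differed from WT for 1 gene in MPK6ox roots, against 0.387% of all probe sets. It differed for 0 genes by limma in mpk6 roots (0.0484% of all probe sets), mpk6 shoots (0.0044%) and MPK6ox shoots (0.492%). At an unadjusted p under 0.05 there were 5 genes in mpk6 roots, 2 in mpk6 shoots, 1 in MPK6ox roots and 4 in MPK6ox shoots. The share of all probe sets at that threshold is not given here, so nothing is read from these counts.

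The gene called in hypoxic MPK6ox roots was AT3G29970. Its level there was 11.55, 11.20 and 11.55, against 9.49 and 9.70 in hypoxic WT roots. The MPK6ox arrays all lay above the WT arrays, by 1.84 ± 0.26 log2 units or 3.58-fold (SE, limma adjusted p = 0.00256). Without replicate 1 of hypoxic WT roots the call was lost. The difference was then 1.74, with 1 array left in that group. In hypoxic mpk6 roots the level was 9.28 and 9.60, which overlapped WT.

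The same gene was also high in hypoxic MPK6ox shoots, though the test was not passed. It was at 9.76 and 8.95 there, 7.84 and 7.01 in hypoxic mpk6 shoots, and 8.29 and 7.86 in hypoxic WT shoots. MPK6ox was above WT by 1.28 ± 0.29 or 2.43-fold (limma adjusted p = 0.0661), and over the alternative settings the adjusted p ran from 0.0333 to 0.684. In normoxia it was at 5.70 and 5.67 in MPK6ox roots, 5.78 and 5.68 in mpk6 roots and 5.75 and 6.13 in WT roots. In normoxic shoots it was at 6.09 and 6.77 in MPK6ox, 5.97 and 5.73 in mpk6 and 6.38 and 6.49 in WT. The normoxic differences between MPK6ox and WT were not called in either organ.

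**Figure D5:**
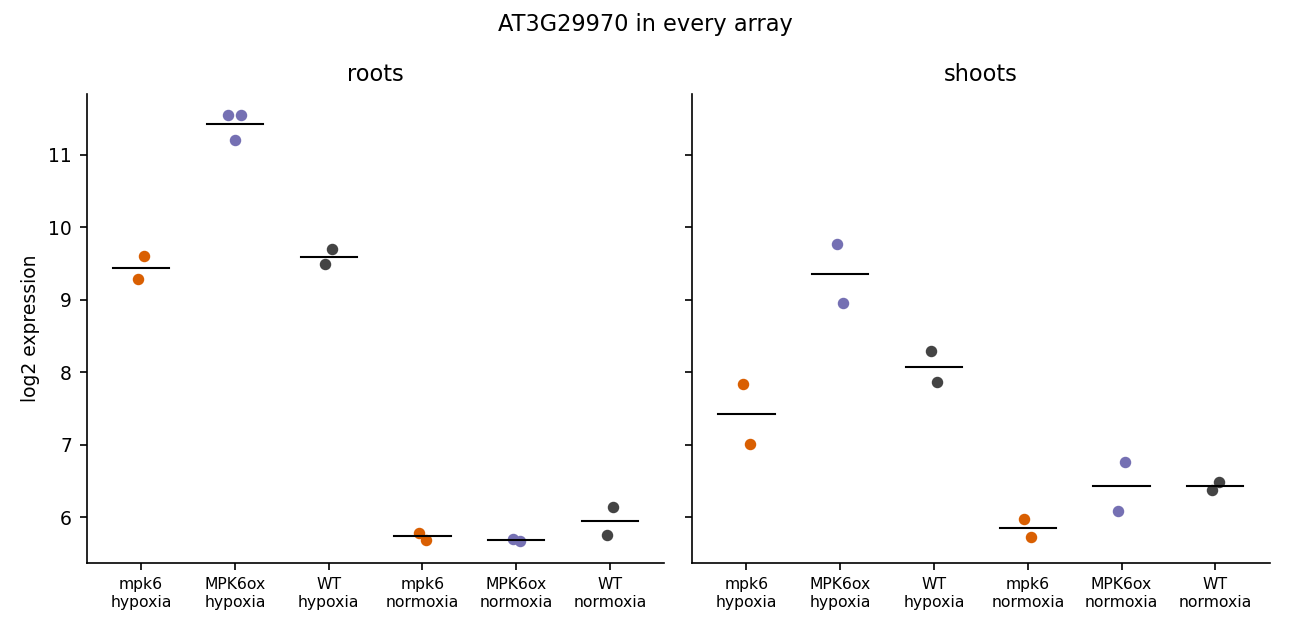
Log2 expression of AT3G29970 in every array of the 12 groups, roots on the left and shoots on the right, with lines at group means. The 3 hypoxic MPK6ox root arrays lie between 11.20 and 11.55, above the mpk6 and WT arrays, and the normoxic arrays of all genotypes lie between 5.67 and 6.77.

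Tested as a difference of hypoxia effects, MPK6ox exceeded WT for AT3G29970 by 2.10 ± 0.39 in roots and by 1.29 ± 0.41 in shoots. By limma with adjustment over all probe sets neither passed, with adjusted p = 0.636 in roots and 1.00 in shoots, against unadjusted p = 5.6e-05 and 0.00585. The photosynthesis mean of hypoxic roots was 9.33 in MPK6ox and 9.20 in WT, and with it as a covariate the level difference in hypoxic roots was 1.84 (adjusted p = 0.00388).

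On the low-oxygen list, 25 of 27 measured genes were called higher in WT roots and 24 in WT shoots, where 2.55% and 0.941% of all probe sets were called higher. None of the 27 was called lower, where 3.95% of probe sets in WT roots and 0.435% in WT shoots were. These counts are no independent evidence, since 26 of the 27 are the 8 genes described here and 18 set aside by name, picked on these data, and 25 of the 52 listed genes were not analysed here. The 1 remaining gene, AT2G15880, had effects of 0.98 in WT roots and 0.80 in WT shoots and was not called.

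The other lists had few measured genes. Of 4 measured fermentation and sugar genes, PDC2, a pyruvate decarboxylase, and AT4G17260, both set aside by name, were higher in all 6 pairs. PPDK, a pyruvate orthophosphate dikinase, had WT effects of 0.37 in roots and shoots, and GAPC2, a glycolytic dehydrogenase, of 0.46 and 0.39. The 1 measured oxygen-sensing gene, AT3G10040, was higher in all 6 pairs, with effects of 6.23 in WT roots and 6.53 in WT shoots. None of the 1 ethylene gene (EIN3), 5 mitochondrial dysfunction genes, 3 heat shock genes and 1 energy starvation gene measured was called in WT by limma. Unadjusted, 1 mitochondrial and 1 starvation gene passed in WT roots and 1 heat shock gene in WT shoots. No share of all probe sets stands beside these counts either.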

How the data were processed

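The deposited table holds log2 expression values that the authors computed by RMA according to the submitters' processing notes, where no version is named. Labelling used 2 rounds of amplification and biotin, per the labels' protocols. Values were used as deposited; array medians ran from 6.88 to 7.08, and 2 or 3 arrays per group limit the precision. Of 22810 probe sets, 64 controls were left out and 22746 tested; 13513 carried 1 gene by the array's probe table, 503 several, and 8730 are unnamed here. Gene IDs of 13436 matched RefSeq TAIR10.1, which gave names and gene order.

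One limma 3.58.1 model in R 4.3.3 with 12 group means gave 14 contrasts (13 residual and 3.41 prior degrees of freedom), with Benjamini-Hochberg adjustment over all tested probe sets, and was tested on simulated data. Tables and figures used Python 3.11.15, pandas 2.3.3 and matplotlib 3.10.9. Any of the 33 genes, the 5 just under the threshold, list genes and neighbours could be named. The genes and lists were chosen with earlier results of these data known.

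Deviations of same-numbered replicates correlated between -0.03 and 0.67 in 66 pairs of groups (median 0.30, over 0.1 in 55). No label ties numbers to a batch, so the main fit did not use numbers as pairs. An alternative fit used the number as a block.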

Additional observations from a re-analysis of the deposited data

Results flagged for a closer look

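For 14 genes the hypoxia effect in roots differed from that in shoots by the test of the difference itself. That difference is made of the same 6 effects that chose the genes. The root minus shoot differences were 2.90 log2 units for AT5G26200, 2.32 for AT3G29970, 1.83 for AT5G10210, 1.56 for AT1G67910, 1.54 for AT1G28760, 1.53 for AT1G03610, 1.32 for AT1G07870, 1.23 for AT4G27450, 1.22 for AT1G64460, 1.2 for TIL, 0.90 for AT1G76600, 0.65 for AT3G02555, 0.59 for AT1G26270 and 0.58 for AT2G18670. Of 6 measured photosynthesis genes, 6 were called higher in hypoxic MPK6ox roots, 4 in WT roots and 0 in mpk6 roots, and with their mean as a covariate 11 of the 14 calls were kept.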

How the results depend on the processing

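The limits are few arrays per group and no measure of signal over background. Of 37 calls for single genes, 30 kept call and direction under every alternative run, and none reversed. Other scalings gave 36 (quantile) and 40 (median-centred) genes in the set, all 33 included; a threshold of 0.8 gave 60, and 1.2 gave 29. Leaving out 1 of 25 arrays in turn gave 30 to 36 genes in the set, 12 to 16 genes with an organ difference of effect and 20 to 23 with a normoxic organ difference.

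Some calls turned on single arrays. The effect call of AT1G76600 was lost without replicate 1 of WT, mpk6 or MPK6ox normoxic roots, replicate 2 of mpk6 or MPK6ox normoxic roots, replicate 2 of WT, mpk6 or MPK6ox normoxic shoots, replicate 1 of MPK6ox normoxic shoots, replicate 2 of WT, mpk6 or MPK6ox hypoxic roots, or replicate 1 of WT, mpk6 or MPK6ox hypoxic shoots. That of AT5G10210 was lost without replicate 1 of WT or MPK6ox normoxic roots, replicate 2 of WT, mpk6 or MPK6ox normoxic shoots, replicate 2 of WT hypoxic roots, or replicate 1 of WT, mpk6 or MPK6ox hypoxic shoots. The normoxic call of AT1G74940 was lost without replicate 1 of normoxic roots or replicate 2 of normoxic shoots of any genotype (6 arrays, adjusted p up to 0.0893) and with median centring (0.0799). That of AT3G29970 was lost without replicate 1 of WT normoxic roots, replicate 2 of mpk6 or MPK6ox normoxic roots, replicate 2 of WT or MPK6ox normoxic shoots, or replicate 1 of mpk6 normoxic shoots (adjusted p up to 0.106). Effect calls were gained by AT5G42200 with quantile normalization and, with AT3G60520, without replicate 1 of hypoxic mpk6 roots (0.46 and 0.81, adjusted p = 0.0235 and 0.0302), by FHL without replicate 2 of hypoxic MPK6ox roots (0.61, adjusted p = 0.0473) and by AT2G31390 without replicate 1 of hypoxic MPK6ox shoots (0.43, adjusted p = 0.0386). For the hypoxic level, the difference of AT5G42200 between mpk6 and WT roots was -0.39 in the main fit. It was -0.69 without replicate 2 of hypoxic mpk6 roots, which left 1 array in that group. In MPK6ox roots AT3G29970 lost its call without replicate 1 of hypoxic WT roots, at a difference of 1.74 with 1 array left in that group. For MPK6ox shoots the calls ranged over 0 to 1 gene. In MPK6ox shoots AT3G29970 was called without dim probe sets (1 gene, adjusted p = 0.0478), with array weights (1 gene, adjusted p = 0.0447), without either hypoxic mpk6 shoot array (0.0333), and without replicate 2 of hypoxic MPK6ox shoots (0.0441). Without replicate 1 of hypoxic MPK6ox shoots AT2G22880 was called instead (1.33, adjusted p = 0.0470). The cause was not tested. 

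With the replicate number as a block, 14 genes had an organ difference of effect, 23 a normoxic organ difference, 1 a different hypoxic level in MPK6ox roots, and 0 any other difference from WT. Shares of all probe sets are not given for the block or for the fits with an array left out. Those counts are read only against the counts of the main fit. The covariate was added after seeing the data, and with it the normoxic calls of AT1G74940, AT3G29970 and AT5G11090 were also lost (adjusted p = 0.426, 0.117 and 0.0756).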
